A study of Mus musculus with 4 samples.

Results

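The 10 genes examined here encode Polycomb repressive complex 2 (PRC2), and they were taken by symbol (Ezh1, Ezh2, Eed, Suz12, Rbbp4, Mtf2, Phf1, Phf19, Jarid2 and Aebp2) from a table of 33708 autosomal rows. All 10 were found, each in a single row. The RNA came from the frontonasal prominence (FNP), which builds the nose and snout, of 4 FVB/NJ mouse embryos dissected at E10.5 with 29 somites. Of these, 2 were Smchd1+/+ (WT, labelled as 1 female and 1 male) and 2 were Smchd1 MommeD43/MommeD43 (MD43, both labelled male). MommeD43 is a missense allele of Smchd1 that arose in a chemical mutagenesis screen, and SMCHD1 is a non-canonical SMC protein with roles in epigenetic silencing. Another record of the study lists the male WT embryo as female, so sex and genotype may vary together, and this was not checked here. The second embryo of each genotype came from the same mother. FNPs were whole dissected pieces and hold several tissues, so fewer cells of a type and less RNA per cell cannot be told apart. The comparison of MD43 with WT asks whether the genes that build PRC2 are themselves expressed at other levels when SMCHD1 carries this change.

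PRC2 methylates lysine 27 of histone H3 and so keeps developmental genes silent in cells that do not use them. The methyltransferase is EZH2 or its paralogue EZH1, which needs EED and SUZ12 for activity, and RBBP4 is a histone-binding subunit that other chromatin complexes share. This core joins alternative partners. In PRC2.1 a Polycomb-like protein (MTF2, PHF1 or PHF19) helps to bring the complex to CpG islands, and in PRC2.2 JARID2 and AEBP2 take that place. EZH2 is typical of dividing cells, whereas EZH1 is typical of cells that divide little. In the face, PRC2 is known for its part in neural crest, where loss of Ezh2 prevents formation of the craniofacial skeleton.

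The members differed far more in level than between the genotypes, and the sequence before the transcription start is shown for the most abundant member (Rbbp4), an abundant core member (Suz12) and the less abundant methyltransferase (Ezh1). Each line holds the 250 bases before the RefSeq start, 5′ to 3′ on the strand of the gene, in GRCm38.p6. The positions are chr4:129335371-129335620 (minus strand), chr11:79992856-79993105 (plus strand) and chr11:101226464-101226713 (minus strand). These windows hold no annotated exon of a protein-coding gene in GENCODE M21. Capitals mark exact matches, on either strand, to an E2F motif (TTTCCCGC, TTTCGCGC, TTTGCCGC or TTTGGCGC), a GC box (GGGCGG) or a CCAAT box (CCAAT).
Rbbp4: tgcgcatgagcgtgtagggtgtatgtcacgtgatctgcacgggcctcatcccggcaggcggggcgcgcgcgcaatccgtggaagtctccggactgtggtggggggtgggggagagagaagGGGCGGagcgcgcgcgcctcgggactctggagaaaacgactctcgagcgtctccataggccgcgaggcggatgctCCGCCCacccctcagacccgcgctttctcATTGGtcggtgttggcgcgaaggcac
Suz12: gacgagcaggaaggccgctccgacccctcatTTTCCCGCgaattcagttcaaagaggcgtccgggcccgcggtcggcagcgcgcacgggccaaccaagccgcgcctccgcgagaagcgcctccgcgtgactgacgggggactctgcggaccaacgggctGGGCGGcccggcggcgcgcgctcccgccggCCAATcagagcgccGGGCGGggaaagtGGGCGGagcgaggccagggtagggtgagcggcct
Ezh1: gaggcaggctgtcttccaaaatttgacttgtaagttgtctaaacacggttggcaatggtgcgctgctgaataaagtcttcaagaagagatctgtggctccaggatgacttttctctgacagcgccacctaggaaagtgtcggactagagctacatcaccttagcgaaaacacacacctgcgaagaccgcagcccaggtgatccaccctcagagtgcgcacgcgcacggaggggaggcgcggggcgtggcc

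The Suz12 window held 1 E2F match, 3 GC boxes and 1 CCAAT box, and the Rbbp4 window held 2 GC boxes and 1 CCAAT box. The Ezh1 window held none of these motifs. RefSeq gave 14 such windows for the 10 members. Among them, an E2F match was present for 2 members (Suz12 and Phf19), a GC box for 7 and a CCAAT box for 6. Of all 32851 windows of the same length, 1.86% held an E2F match, 32.7% a GC box and 33.8% a CCAAT box. These shares are per window, whereas a member with more than 1 window had more chances of a match. The member counts and the shares are therefore not directly comparable. The printed windows held 37 CpG dinucleotides for Suz12, 30 for Rbbp4 and 14 for Ezh1, against a median of 6.0 over all windows. Other member windows fell below that median, with 1 and 3 CpG in 2 of the 3 Aebp2 windows and 2 in 1 of the 2 Mtf2 windows. A match describes letters only and is not a shown binding site.

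The table holds 1 log2 RPKM value per genotype (reads per kilobase of transcript, scaled to sequencing depth), in which the authors merged both libraries. No spread between embryos can therefore be had, none of the differences below was tested, and no replicate check was possible. Reads were recovered from the values as the geometric mean of both libraries of a genotype. The depth this implies was 22328791 reads for MD43 and 16055882 for WT. The error printed with a difference is the smallest standard error (SE) that read counting allows, without variation between embryos. Smchd1, which carries the mutation, stood at 3.30 log2 RPKM in MD43 and 3.31 in WT (MD43 minus WT -0.013 ± 0.024 counting SE).

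All PRC2 genes were expressed in the FNP of both genotypes, in the same order. In WT they ran from Rbbp4 at 82.3 RPKM to Phf19 at 0.640 RPKM, a 129-fold range, and in MD43 from 81.4 to 0.817 RPKM, a 99.7-fold range. Rbbp4, Ezh2 and Suz12 were the most abundant, and in WT they lay above the 90th percentile of the 13242 protein-coding genes that reached 10 reads in either genotype (percentiles 96.9, 93.5 and 90.2), while in MD43 Suz12 was at 88.2. Eed, Mtf2, Jarid2 and Aebp2 followed at WT percentiles of 85.1, 83.3, 76.3 and 62.9. Ezh1, Phf1 and Phf19 were far below, at WT percentiles of 27.8, 26.1 and 13.1. The widest step lay between Aebp2 and Ezh1, 2.16 on the log2 scale in WT and 2.28 in MD43. The narrowest steps in WT were those from Eed to Mtf2 (0.15 ± 0.03 counting SE) and from Ezh1 to Phf1 (0.15 ± 0.12). The step from Ezh1 to Phf1 was 0.11 ± 0.11 in MD43, so the order of these neighbours was not resolved at this depth.

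**Figure D1:**
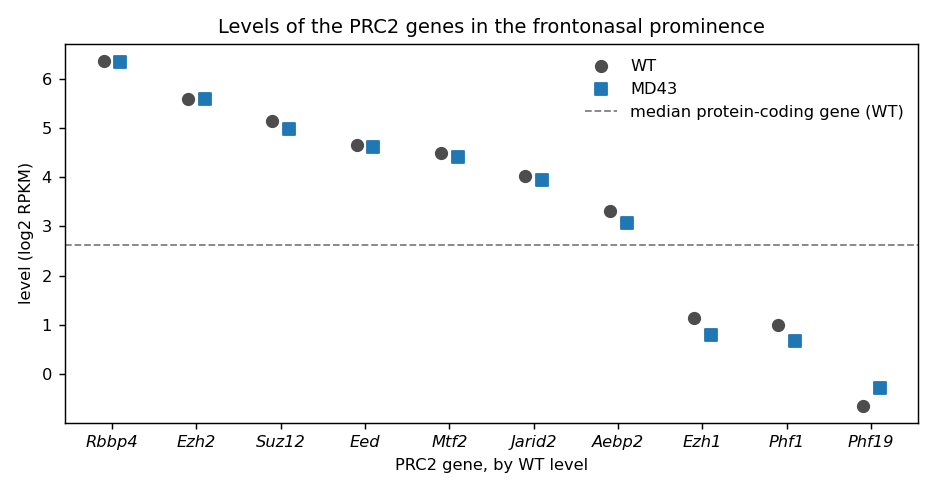
Level of each PRC2 gene in log2 RPKM (vertical axis) in WT (circles) and MD43 (squares), with genes ordered by WT level and the median protein-coding gene of WT as a dashed line. The 7 genes from Rbbp4 to Aebp2 are above the line and Ezh1, Phf1 and Phf19 are below it in both genotypes.

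Of the catalytic subunits, Ezh2 was abundant with nearly equal values, and Ezh1 was sparse with a lower value in MD43. Ezh2 (ENSMUSG00000029687, chromosome 6, 47530139 to 47595341, minus strand), the main methyltransferase of dividing cells, stood at 5.60 log2 RPKM in WT (5212 reads) and 5.60 in MD43 (7233 reads). The difference was -0.003 ± 0.019, smaller than its counting error. Ezh1 (ENSMUSG00000006920, chromosome 11, 101191115 to 101226463, minus strand), the paralogue with weaker methyltransferase activity, stood at 1.14 log2 RPKM in WT (264 reads) and 0.79 in MD43 (286 reads). It was 1.28-fold lower in MD43, a log2 difference of -0.36 ± 0.09, and it was the only member lower by at least 0.32 on the log2 scale, the smaller of the limits used for counting genes. The log2 difference Ezh1 minus Ezh2 was -4.81 in MD43 and -4.46 in WT and these differed by -0.35 ± 0.09. Ezh1 thus made up 3.43% of the summed RPKM of both methyltransferases in MD43 and 4.35% in WT.

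The other core genes were close between the genotypes. Eed (ENSMUSG00000030619, chromosome 7, 89954654 to 89980983, minus strand), which binds the methylated histone and stimulates the enzyme, stood at 4.65 log2 RPKM in WT (1544 reads) and 4.62 in MD43 (2099 reads), with a difference of -0.033 ± 0.034. Rbbp4 (ENSMUSG00000057236, chromosome 4, 129307100 to 129335370, minus strand) stood at 6.36 log2 RPKM in WT (11560 reads) and 6.35 in MD43 (15896 reads), with a difference of -0.016 ± 0.012. Suz12 (ENSMUSG00000017548, chromosome 11, 79993106 to 80034123, plus strand), the scaffold on which the core and its partners assemble, stood at 5.14 log2 RPKM in WT (2804 reads) and 4.97 in MD43 (3471 reads). Its difference of -0.17 ± 0.03 was 1.12-fold and the widest among Ezh2, Eed, Suz12 and Rbbp4. The excess of Suz12 over Eed was 1.41-fold in WT and 1.28-fold in MD43.

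Of the Polycomb-like genes of PRC2.1, Mtf2 carried most of the RNA. Mtf2 (ENSMUSG00000029267, chromosome 5, 108065674 to 108109004, plus strand) stood at 4.50 log2 RPKM in WT (2072 reads) and 4.42 in MD43 (2721 reads), a difference of -0.083 ± 0.030. It supplied 89.8% of the summed RPKM of Mtf2, Phf1 and Phf19 in MD43 and 89.6% in WT. Phf1 (ENSMUSG00000024193, chromosome 17, 26933052 to 26937908, plus strand) stood at 0.99 log2 RPKM in WT (111 reads) and 0.68 in MD43 (125 reads), and was 1.24-fold lower in MD43 (-0.31 ± 0.13). Phf19 (ENSMUSG00000026873, chromosome 2, 34893757 to 34914026, minus strand) stood at -0.64 log2 RPKM in WT (51.8 reads) and -0.29 in MD43 (91.9 reads). It was the only member with a higher value in MD43, by 1.28-fold (0.35 ± 0.18). The share of Phf1 in the summed RPKM was 6.73% in MD43 and 7.86% in WT, and that of Phf19 was 3.43% and 2.53%.

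The PRC2.2 genes had intermediate levels. Jarid2 (ENSMUSG00000038518, chromosome 13, 44729474 to 44921643, plus strand), which tethers PRC2 to chromatin, stood at 4.04 log2 RPKM in WT (2561 reads) and 3.95 in MD43 (3342 reads), a difference of -0.092 ± 0.027. Aebp2 (ENSMUSG00000030232, chromosome 6, 140622663 to 140678472, plus strand), a zinc finger protein that binds SUZ12, stood at 3.31 log2 RPKM in WT (1565 reads) and 3.06 in MD43 (1839 reads). Aebp2 was 1.18-fold lower in MD43 (-0.24 ± 0.04), the widest difference among the 7 members with a mean level of at least 3 log2 RPKM. The mean log2 RPKM of Jarid2 and Aebp2 exceeded that of Mtf2, Phf1 and Phf19 by 1.90 in MD43 and 2.06 in WT, and these excesses differed by -0.15 ± 0.08. The mean log2 RPKM of the 5 accessory genes minus that of Ezh2, Eed and Suz12 was -2.70 in MD43 and -2.69 in WT.

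**Figure D2:**
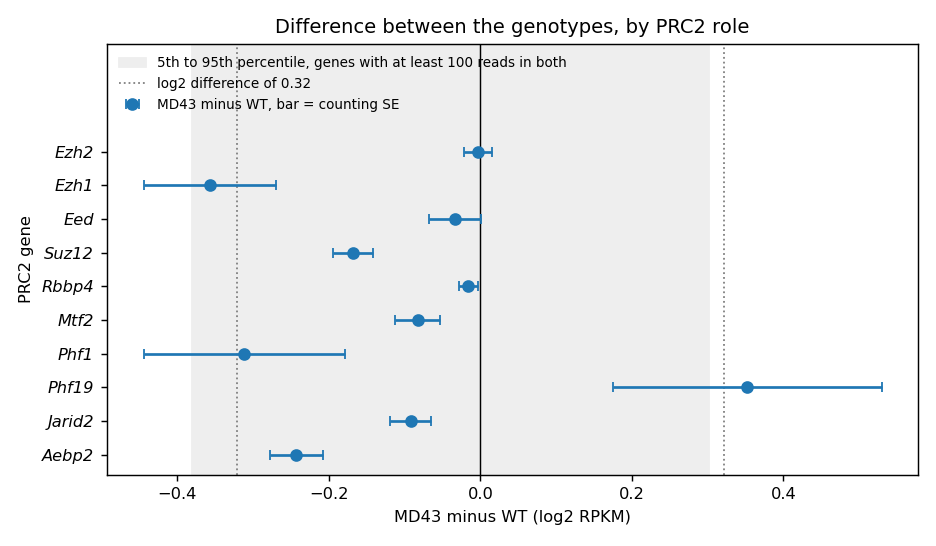
MD43 minus WT difference in log2 RPKM (horizontal axis) for each PRC2 gene, with bars of 1 counting SE, dotted lines at 0.32 and a grey band from the 5th to the 95th percentile of the 10757 genes that reached 100 reads in both genotypes. Every gene except Phf19 lies within the band, and Ezh2, Eed and Rbbp4 lie nearest to 0. Phf19 had under 100 reads and is not in the set behind the band. Its difference of 0.35 is below 0.52, the 95th percentile of the 15377 genes that reached 10 reads in either genotype.

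As a group, 9 of the 10 PRC2 genes had a lower value in MD43 and 1 a higher value, with a median log2 difference of -0.087 and a range from -0.36 to 0.35. This count did not hold when differences were adjusted for GC content and length: 5 were then lower and 5 higher, with Ezh2 at 0.068, Mtf2 at 0.057, Rbbp4 at 0.048 and Eed at 0.003, and the median was -0.029. Suz12 and Aebp2 were then nearer to no difference, at -0.070 and -0.13, each beyond the 95% counting interval of its unadjusted value. All 10 reached 10 reads in either genotype, and of the 15377 genes that did, 48.8% were lower in MD43 (47.2% of the 10757 genes that reached 100 reads in both, and 38.9% of these after the adjustment). The median log2 difference of the 15377 genes was 0.0057. A difference of at least 0.32 on the log2 scale was seen for 1 member lower in MD43 (Ezh1), against 13.9% of the 15377 genes and 7.15% of the 10757. It was seen for 1 member higher (Phf19), against 10.3% of the 15377 genes. With 1 of 10 in each direction, these shares are near those of the 15377 genes. The 10757 genes, of which 4.34% were higher by as much, hold 9 of the members and not Phf19, which had under 100 reads. No member differed by 2-fold, against 2.47% of the 15377 genes lower and 1.64% higher. The 95% counting interval left out 0 for 7 members, 6 lower and 1 higher (Phf19). It also did so for 50.4% of the 15377 genes (24.2% lower and 26.2% higher) and for 57.3% of the 10757, and it does not include variation between embryos.

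The size of the differences went with level. The 7 members with a mean of at least 3 log2 RPKM differed by at most 0.24 on the log2 scale, and among the 5984 genes at such levels 6.97% differed by 0.32 or more (2.79% lower and 4.18% higher). The 3 less abundant members (Ezh1, Phf1 and Phf19) differed by at least 0.31. Among the 3728 genes with a mean between -1 and 1.5 log2 RPKM, which covers these 3, 38.7% differed by 0.32 or more (24.9% lower and 13.7% higher). The widest PRC2 differences therefore stood where differences of this size were common.

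**Figure D3:**
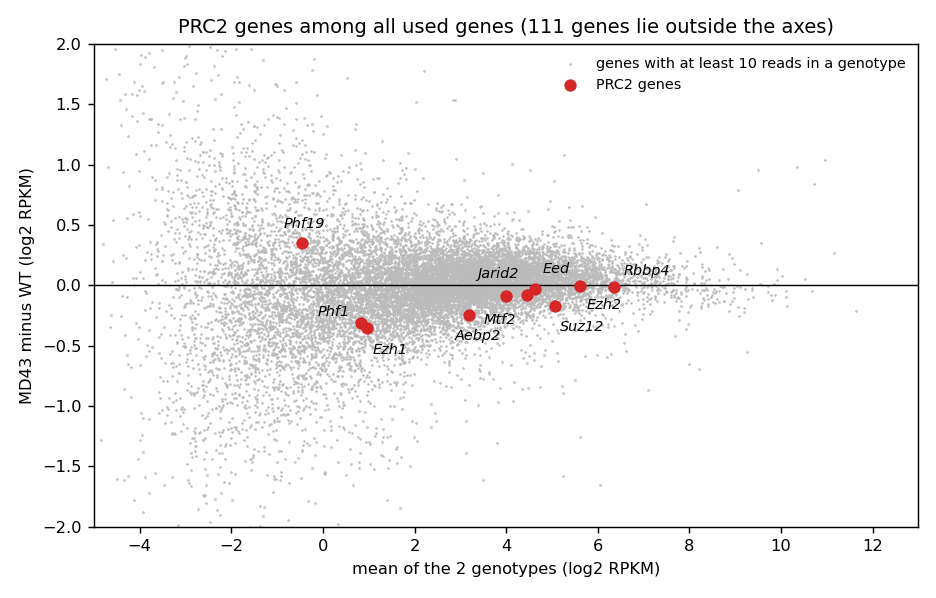
MD43 minus WT difference in log2 RPKM (vertical axis) against the mean log2 RPKM of the genotypes (horizontal axis) for all genes that reached 10 reads in either genotype (grey) and the PRC2 genes (red). The 7 more abundant PRC2 genes sit on or just below the line at 0, and Ezh1, Phf1 and Phf19 sit where the cloud of all genes is wide (111 genes lie outside the axes).

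Some member rows can share reads with overlapping genes, because the use of strand in the counting is not stated. Phf1 is the most exposed, with 1370 of its 3486 exon bases also in exons of Cuta on the other strand, which had 971 reads in MD43 and 702 in WT. Rbbp4 shared 796 of its 8744 exon bases with Gm26722 (1285 MD43 and 1171 WT reads) and 782 with Sync (14.4 MD43 and 4.90 WT reads), and Mtf2 shared 395 of 5698 with Tmed5 (1097 MD43 and 768 WT reads). Smaller overlaps with non-coding genes were present for Eed (261 bases), Suz12 (178 bases) and Ezh2 (174 bases). No exon of Ezh1, Jarid2, Aebp2 or Phf19 overlapped an exon of another annotated gene.

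Genes that work beside PRC2 differed little. Of 5 other PRC2 subunit genes, 3 were in the table. Epop, which links PRC2.1 to elongin, stood at 4.36 log2 RPKM in WT and 4.55 in MD43 (0.20 ± 0.05), and Lcorl, which encodes the PRC2.1 subunit PALI2, had 1.64 in WT and 1.47 in MD43 (-0.17 ± 0.04). Lcor, which encodes PALI1, could not be matched to the annotation and has no read number. Epop was thus near the level of Mtf2. Of the genes that remove H3K27 methylation or acetylate this residue, Kdm6b (an H3K27 demethylase) was at -0.15 ± 0.03, Ep300 at 0.08 ± 0.03 and Crebbp at 0.03 ± 0.04 (both acetyltransferases). None of these differed by 0.32 or more, and X-linked and Y-linked relatives were not analysed here.

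The MLL/COMPASS genes, whose proteins methylate H3K4 and oppose Polycomb silencing, had higher values in MD43 for 10 of the 10 genes with reads, with a median log2 difference of 0.13. This was 7 of 10 after rescaling each genotype to a common RPKM sum (TPM) and 8 of 10 with the globin genes left out of that sum. The widest differences were Setd1b at 0.25 ± 0.04, Kmt2b at 0.17 ± 0.03, Wdr5 at 0.16 ± 0.02 and Kmt2d at 0.15 ± 0.03, and the most abundant was Dpy30 at 0.08 ± 0.04. None reached 0.32. Men1, also on the list, was listed without reads in any library, which may come from how reads were assigned to genes and does not show that it was not expressed. The NuRD and CAF-1 genes, complexes that share RBBP4 with PRC2, had a median of 0.05, with 10 of 13 higher (8 of 13 after TPM rescaling or median centring, 11 of 13 after the GC content and length adjustment). Beside both lists, 47.2% of the 10757 genes used as a background above were lower in MD43. This share was 55.9% after TPM rescaling and 52.2% with the globin genes left out of that sum. It was 38.9% after the GC content and length adjustment. Gatad2a was at 0.29 ± 0.03, Chaf1a at 0.21 ± 0.02, Chd4 at 0.18 ± 0.01 and Mbd2 at -0.17 ± 0.06, and Mbd3, the most abundant, was at 0.12 ± 0.02.

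Because Ezh2, Eed and Suz12 are known to respond to E2F in dividing cells, genes of replication and division were set beside them. They had a median of 0.08, with 12 of 16 higher and 4 lower, and none reached 0.32. After the GC content and length adjustment 15 of 16 were higher, and after TPM rescaling 11 of 16. The directions of genes in general also moved with the scaling. Of the 10757 genes used as a background above, 47.2% were lower in MD43 without rescaling. This share was 38.9% after the GC content and length adjustment and 55.9% after TPM rescaling. Mcm5 was at 0.28 ± 0.02, Mcm2 at 0.24 ± 0.02, Rrm2 (the most abundant) at 0.20 ± 0.02 and Tyms at 0.19 ± 0.03. The 4 lower genes were E2f1 at -0.12 ± 0.05, Top2a at -0.06 ± 0.01, Pcna at -0.006 ± 0.017 and Ccna2 at -0.004 ± 0.019. Ezh2, Eed and Suz12 stood at -0.003, -0.03 and -0.17. After the GC content and length adjustment they stood at 0.068, 0.003 and -0.070. A link between the core genes and this list was not tested. Commonly used reference genes had a median of -0.01 (4 of 9 higher, and from 2 to 6 of 9 over the other scalings), with Actb, the most abundant, at 0.01 ± 0.01, B2m at -0.18 ± 0.08, Gapdh at -0.13 ± 0.06, Sdha at 0.07 ± 0.02 and Polr2a at 0.07 ± 0.02. Gapdh has near-identical pseudogene copies and its value is uncertain.

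In a list of 30 developmental regulators widely known as PRC2 targets, most had few or no reads in both genotypes. Of them, 18 had under 10 reads in both genotypes, 15 had at most 3 reads in both, and 5 (Hoxa13, Hoxb13, Nkx2-5 and Pdx1 among them) had no read in any library. Low counts were also common over all 33708 rows. Of these rows, 15377 were matched to the annotation and reached 10 reads in either genotype. A further 12862 stood at the difference that genes without reads have, which rows with equal reads in both genotypes also have. The other 12 targets had a median log2 difference of -0.18, with 7 lower and 5 higher and a range from -2.83 to 1.74. By at least 2-fold, 3 were lower (Nkx2-2, Pax2 and Gata6) and 1 higher (Foxa2), where 2.47% of the 15377 genes were lower and 1.64% higher by as much. Gata6, Foxa2 and T (higher in MD43) reached 10 reads only in the genotype where they were higher. The read filter thus helped to decide that they were among the 12, and the counts and median rest partly on it. Among those that reached 100 reads in both genotypes the median was 0.33, with no filter it was -0.46, and with a pseudocount of 1 RPKM it was -0.065. The list showed no common direction.

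Individual targets varied widely. Nkx2-2, a regulator of ventral neural tube and hypothalamus, was read 61.2 times in WT and 12.0 times in MD43 and was 7.12-fold lower (-2.83 ± 0.32). An antisense gene overlaps it, so that reads may be shared. Pax2, a regulator of optic stalk and midbrain, rested on 61.8 WT and 37.3 MD43 reads (-1.20 ± 0.21), and Pax5, a midbrain regulator, rested on 44.5 WT and 34.4 MD43 reads (-0.85 ± 0.23). Eomes rested on 326 WT and 332 MD43 reads (-0.45 ± 0.08). The targets with the most reads were Sox1, a neural progenitor gene, at 1416 reads in WT and 1679 in MD43 (-0.23 ± 0.04), and Pax7, a neural crest gene, at 513 reads in WT and 932 in MD43 (0.39 ± 0.06). Foxa2 rested on 4.24 reads in WT and 19.8 in MD43 (1.74 ± 0.55) and Gata6 on 11.1 reads in WT and 5.92 in MD43 (-1.38 ± 0.52), and both were named after their values were seen.

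**Figure D4:**
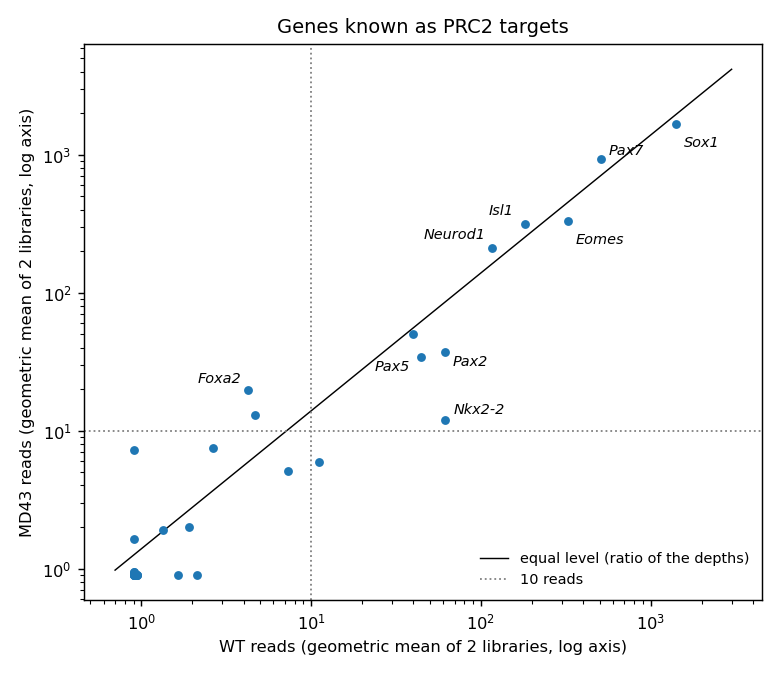
Reads of the 30 known PRC2 target genes in MD43 (vertical axis) against WT (horizontal axis), each the geometric mean of both libraries, on log axes, where 0.9 stands for a library with no read. The line marks equal level at these depths and dotted lines mark 10 reads, and Nkx2-2, Pax2 and Pax5 lie below the line while Pax7 and Foxa2 lie above it.

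The tissue make-up of the pieces was checked with marker genes. Facial mesenchyme markers were all present, with a median of -0.05 (6 of 12 higher, 4 of 12 after TPM rescaling), summing to 175 RPKM in MD43 and 177 in WT. Among them, Twist1 was at -0.39 ± 0.05, Prrx1 at -0.29 ± 0.03 and Tfap2a at -0.23 ± 0.07, and Msx1, the most abundant, was at -0.17 ± 0.03. Red blood cell markers were higher for 6 of 6, with a median of 0.86 and sums of 5817 RPKM in MD43 and 3059 in WT. Slc4a1 was at 1.52 ± 0.08, Hbb-bh1, the most abundant, at 1.04 ± 0.01, Klf1 at 0.88 ± 0.19 and Hbb-y at 0.84 ± 0.01. Surface ectoderm markers were higher for 8 of 10, with a median of 0.60 and sums of 197 and 130 RPKM. Krt5 was at 1.17 ± 0.28, Cldn6 at 0.87 ± 0.05, Cdh1 at 0.73 ± 0.05, Krt8 at 0.70 ± 0.04 and Krt18, the most abundant, at 0.49 ± 0.04.

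Neural markers had a median of -0.05 (5 of 10 higher, 4 of 10 after TPM rescaling) and summed to 326 RPKM in MD43 and 333 in WT. Rax was at -2.17 ± 0.24, Fabp7 at -0.89 ± 0.05, Lhx2 at 0.49 ± 0.02, Pax6 at -0.35 ± 0.03 and Sox2, the most abundant, at -0.13 ± 0.03. Endothelium markers had a median of -0.05 (2 of 7 higher, 3 of 7 after the GC content and length adjustment), with Flt1 at -0.90 ± 0.14, Kdr at -0.33 ± 0.08, Tie1 at 0.23 ± 0.13, Pecam1 at -0.17 ± 0.13 and Cdh5, the most abundant, at -0.007 ± 0.104. Macrophage markers had a median of -0.57 over 5 genes that reached 10 reads (-0.024 with a pseudocount of 1 RPKM and -0.15 with 0.1 RPKM), summing to 4.76 RPKM in MD43 and 5.83 in WT. Tyrobp was at -0.81 ± 0.35, Cx3cr1 at -0.57 ± 0.25 and Csf1r, the most abundant, at -0.03 ± 0.09. No marker in the table was without reads. The part of red blood cell, surface ectoderm or macrophage content in the PRC2 differences was not tested.

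**Figure D5:**
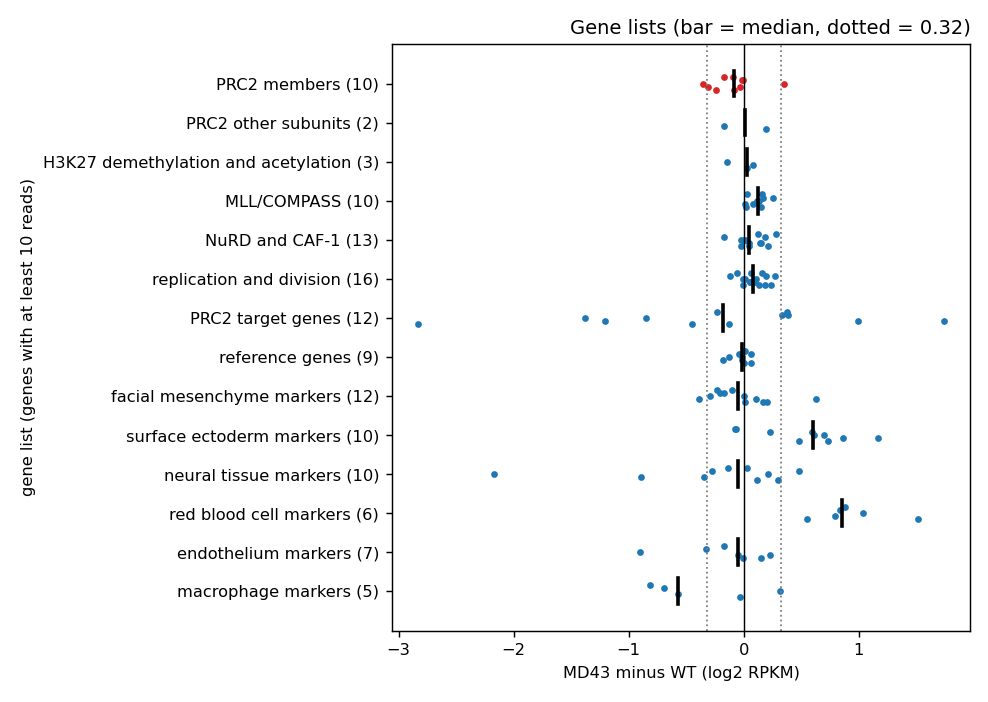
MD43 minus WT difference in log2 RPKM (horizontal axis) for each gene that reached 10 reads in either genotype, by list, with the number of such genes in parentheses, black bars for medians and dotted lines at 0.32. The PRC2 genes lie mostly left of 0 and within 0.32, and the MLL/COMPASS genes lie right of 0. The medians of the red blood cell and surface ectoderm markers lie furthest to the right.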

How the data were processed

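FNPs of 4 embryos were sequenced by the study as stranded mRNA libraries from 100 ng of total RNA. Groups were taken from the sample titles. The authors trimmed reads (Trim Galore 0.4.4), mapped them (HISAT2 2.0.5) to GRCm38.p6 and quantified them in SeqMonk. The deposited table holds log2 RPKM values, which the authors scaled to depth and to transcript length and merged into 1 column for each genotype. Its other columns hold the authors' own false discovery rates, fold changes and means, and were not used. No test was possible.

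The members and gene lists were chosen with earlier results of these data known. Rows were joined to GENCODE M21 on symbol and position, and 33101 matched. The commonest difference between the columns (-0.4758, 12862 rows) is that of genes without reads, for which each library counts as 0.9 reads. Rows with equal reads in both genotypes have it too. Exon lengths then give the product of the read counts of both libraries, and of products under 1000, 99.9% were whole, 0.9 times a whole number or 0.81, to within 0.01, in both genotypes. Read recovery was tested on simulated data for 33101 genes. Counting SEs are lower limits, because the geometric mean is used. Precision of a value is set by its reads, and depths were 22328791 reads (MD43) and 16055882 (WT).

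Beside the members and Smchd1, of each list the text names up to 4 genes with at least 10 reads in each genotype and the widest differences, the most abundant gene and, of the PRC2 targets, the 3 with the most reads. Single values of some list genes are not reported here. As alternatives, a pseudocount (0.1 or 1 RPKM) was added, values were centred on the median of genes that reached 100 reads in both genotypes, and TPM rescaling (with and without globin genes), other read filters and an adjustment for GC content and exon length were applied, the last of which took up 1.39% of the variance. Python 3.11.15, numpy 2.4.6, pandas 2.3.3 and matplotlib 3.10.9 were used. Promoter sequences are from RefSeq (GRCm38.p6) and matched 10 of 10 members.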

Additional observations from a re-analysis of the deposited data

How the results depend on the processing

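The median difference of the PRC2 genes stayed negative under the 6 alternatives run, from -0.12 (TPM) to -0.029 (GC content and length adjustment). Of the 60 values of single members under these alternatives, 7 moved beyond their 95% counting interval. The number of members with a lower value, 9 under the other alternatives, was 5 after the GC content and length adjustment, under which 38.9% of genes that reached 100 reads in both genotypes were lower. The cause was not tested. Members at least 0.32 lower on the log2 scale numbered 0 with a pseudocount of 1 RPKM and 2 (Ezh1 and Phf1) with the centring, either TPM rescaling or the GC content and length adjustment. Members at least 0.32 higher numbered 0 with a pseudocount of 0.1 or 1 RPKM and with TPM rescaling. A pseudocount shrinks differences of genes of low level by construction, and centring and TPM rescaling shift all members alike. The median WT percentile of the members, 79.8 among protein-coding genes, was 91.7 among all rows, which include genes without reads.

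Of 104 list medians, 5 moved by more than the 95% counting limit of the gene with the median SE in the list, a wide limit for lists of few reads. The median of other PRC2 subunits was 0.20 without a read filter, through Lcor. That of replication and division genes was 0.046 after TPM rescaling and 0.12 after the GC content and length adjustment. With at least 100 reads in both genotypes, the PRC2 target median was 0.33 and the neural marker median 0.029, over fewer genes. Within that limit, but by over 1.5 times, the PRC2 target median went from -0.18 to -0.46 without a filter and -0.065 with a pseudocount of 1 RPKM, and the macrophage median from -0.57 to -0.15 and -0.024 with pseudocounts of 0.1 and 1 RPKM and -0.033 over genes that reached 100 reads in both genotypes. No paired analysis was possible because both libraries of a genotype were merged into 1 value, and for the same reason no library could be left out. Depth limits the targets at or under 3 reads, for which no difference is given.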
